A study of Mus musculus with 2 samples.

Results

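P2ry1, P2ry6, P2ry12, P2ry13 and P2ry14 encode G-protein-coupled receptors for extracellular nucleotides, P2rx4 and P2rx7 encode ATP-gated channels, and Entpd1, Entpd2 and Nt5e encode enzymes that break nucleotides down outside the cell. These 10 genes were taken by symbol from the count tables, in which they are 10 of 32285 genes. No measured value entered the rule, but the members were chosen with earlier results of these data known. Their RNA was counted in single cells of the striatum, the input nucleus of the basal ganglia, from untreated adult mice in 2 10x Genomics libraries, replicates 1 and 2 of 1 condition. The samples are labelled as C57/Bl6J mice aged 8-10 weeks and as enriched for glia, whereas the protocol text names the substrain C57BL/6NTac. Myelin debris was depleted during the preparation, and the libraries carry no contrast of genotype or treatment, so that the 10 genes were compared between cell classes. Nothing in the labels says that the libraries came from separate animals. The p-values therefore rest on these 2 libraries only. They use how far differences between classes or groups of cells varied between the libraries, a spread that may be technical. The fit draws the spread of each gene towards that of all genes, so that a p-value does not measure the gene's own spread alone.

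Cells release ATP and UTP when they are active, stressed or damaged, and these nucleotides act on P2X channels and P2Y receptors of neighbouring cells. Ectonucleotidases of the CD39 type, among them the products of Entpd1 and Entpd2, strip phosphates from the nucleotides, and CD73, the product of Nt5e, makes adenosine from AMP. In the brain the ADP receptor P2Y12 is known for guiding microglial processes towards sites of injury, and striatal neurons of the indirect pathway are known for the adenosine receptor encoded by Adora2a.

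P2ry14 (chr3:59113855-59153618), P2ry13 (chr3:59207892-59210882) and P2ry12 (chr3:59216272-59262871) are neighbours on the minus strand of mouse chromosome 3 (build GRCm38, GENCODE annotation). P2ry13 and P2ry12 lie 5390 bp apart, and P2ry14 lies 54274 bp from P2ry13. All 3 lie inside the gene Med12l, which runs on the plus strand and shares exonic sequence with P2ry12 only. P2ry1 stands further along the same chromosome at chr3:61002795-61008982, on the plus strand, and its exons overlap the antisense gene Gm37035. P2rx7 (chr5:122643911-122691432) and P2rx4 (chr5:122707544-122729738) are 16112 bp apart on the plus strand of chromosome 5. P2ry6 lies at chr7:100937630-100974649 on the minus strand, and Entpd1 (chr19:40612366-40741602), Entpd2 (chr2:25395874-25401321) and Nt5e (chr9:88327197-88372092) lie on the plus strand. The exons of Entpd2 overlap those of Npdc1 on the same strand, so that its counts are uncertain to the extent that reads of the pair were split or dropped. Whether the counting used strand is not given in the sources used here, so that reads of P2ry12 and Med12l, and of P2ry1 and Gm37035, may not be told apart.

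The 250 bases upstream of the RefSeq transcript start of the 3 neighbours (GRCm38.p6, minus strand, written 5′ to 3′) are shown because these genes share a locus. RNA of P2ry12 and P2ry13 stood highest in microglia and that of P2ry14 in mural cells. Capitals mark GAGGAAG or its reverse complement CTTCCTC, a core bound by the myeloid factor PU.1.
P2ry12, chr3:59262986-59263235: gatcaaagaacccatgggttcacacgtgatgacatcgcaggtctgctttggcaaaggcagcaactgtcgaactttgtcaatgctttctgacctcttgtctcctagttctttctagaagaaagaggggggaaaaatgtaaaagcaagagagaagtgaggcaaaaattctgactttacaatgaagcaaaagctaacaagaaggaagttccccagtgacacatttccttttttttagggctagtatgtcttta
P2ry13, chr3:59210883-59211132: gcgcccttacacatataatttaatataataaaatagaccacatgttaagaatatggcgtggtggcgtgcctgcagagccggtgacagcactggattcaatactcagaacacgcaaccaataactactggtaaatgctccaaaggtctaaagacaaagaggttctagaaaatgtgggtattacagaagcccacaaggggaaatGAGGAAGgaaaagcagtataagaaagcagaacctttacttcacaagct
P2ry14, chr3:59153493-59153742, the most upstream of its starts: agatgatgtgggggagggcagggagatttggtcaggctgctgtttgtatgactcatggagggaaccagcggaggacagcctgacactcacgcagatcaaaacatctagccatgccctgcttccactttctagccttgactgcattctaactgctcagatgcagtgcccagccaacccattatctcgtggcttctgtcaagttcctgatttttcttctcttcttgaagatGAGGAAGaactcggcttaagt
The motif was searched on both strands in windows from 250 bases before to 50 after each start. It was present in 13.6% of 32851 promoters of this length and in 4 of 14 windows of the members, 1 each for P2ry13, P2ry14, P2rx7 and Entpd1. The RefSeq table held windows for 9 of the 10 members, all but P2ry6. These matches are a description of the letters in the windows.

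The libraries held 6978 and 5437 barcodes with 44597660 and 37982720 UMIs, that is RNA molecules counted by their molecular identifiers, at medians of 3852 and 5375 UMIs per barcode. After a minimum of 300 genes per cell and the removal of 115 and 152 predicted doublets, 11995 cells remained, and 9 barcode sequences occurred in both libraries. Cells were clustered without the members and the other purinergic genes, and clusters were named from marker lists. The named classes held 2141 microglia-like, 171 macrophage-like, 1406 endothelial-like, 554 mural-like, 2598 astrocyte-like, 643 OPC-like, 2365 oligodendrocyte-like, 364 neuron-like and 1657 neuroblast-like cells, and the suffix is left out from here on. OPC stands for oligodendrocyte precursor cell, and mural cells are the pericytes and smooth muscle cells of vessels. Neurons were few, as in a preparation enriched for glia, and their leading genes included Penk and Pde10a of striatal projection neurons. Several classes were mixed. The mural cluster raised 10 of 10 endothelial markers beside 10 of 10 mural markers, the neuroblast cluster raised 10 of 10 progenitor markers as well, and the astrocyte class held most of 415 shallow cells, at a median of 740 UMIs, that were named neuron at a finer resolution. At that resolution 40 of the 171 macrophage-like cells were named monocyte or neutrophil, with 6 of 6 of those markers raised. The same cells raised 6 of 6 T cell markers as well, so that the name does not settle what they are. A cluster of 96 erythroid-like cells, 85 of them in library 1, entered no comparison.

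Levels are UMIs of a gene per 1000000 UMIs of its class in a library (CPM), with exact Poisson 95% intervals that cover counting error only. Since reads came from the 3′ ends of transcripts, levels are compared between classes and not between genes. Fold changes come from edgeR's quasi-likelihood fit on the summed counts (n = 2 libraries) and are on the log2 scale. They set a class against the unweighted mean of the log2 levels of the other 8 classes and are shrunk by a prior count. A class can therefore be called higher although its CPM lies below the arithmetic mean CPM of the others. Such a call is that of P2ry14 in neurons, at a mean of 41.2 CPM beside 539 CPM in mural cells. A class can likewise be called lower although it stands above several other classes, since the mean includes the classes with the highest levels. P2ry12 in endothelial cells (23.8 CPM) and Entpd1 in astrocytes (16.3 CPM) were called lower in 5th place of 9. P2ry13 in neurons (6.04 CPM) was called lower in 4th place. The value after the ± of a fold change is a standard error (SE) derived from the test's fold change without that shrinkage. For genes with few UMIs it does not measure the spread of the printed value. A call is a Benjamini-Hochberg adjusted p under 0.05 over 15303 genes. Many genes differ between cell classes in such a fit, and the share of all tested genes called is therefore given beside each count of members.

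**Figure D1:**
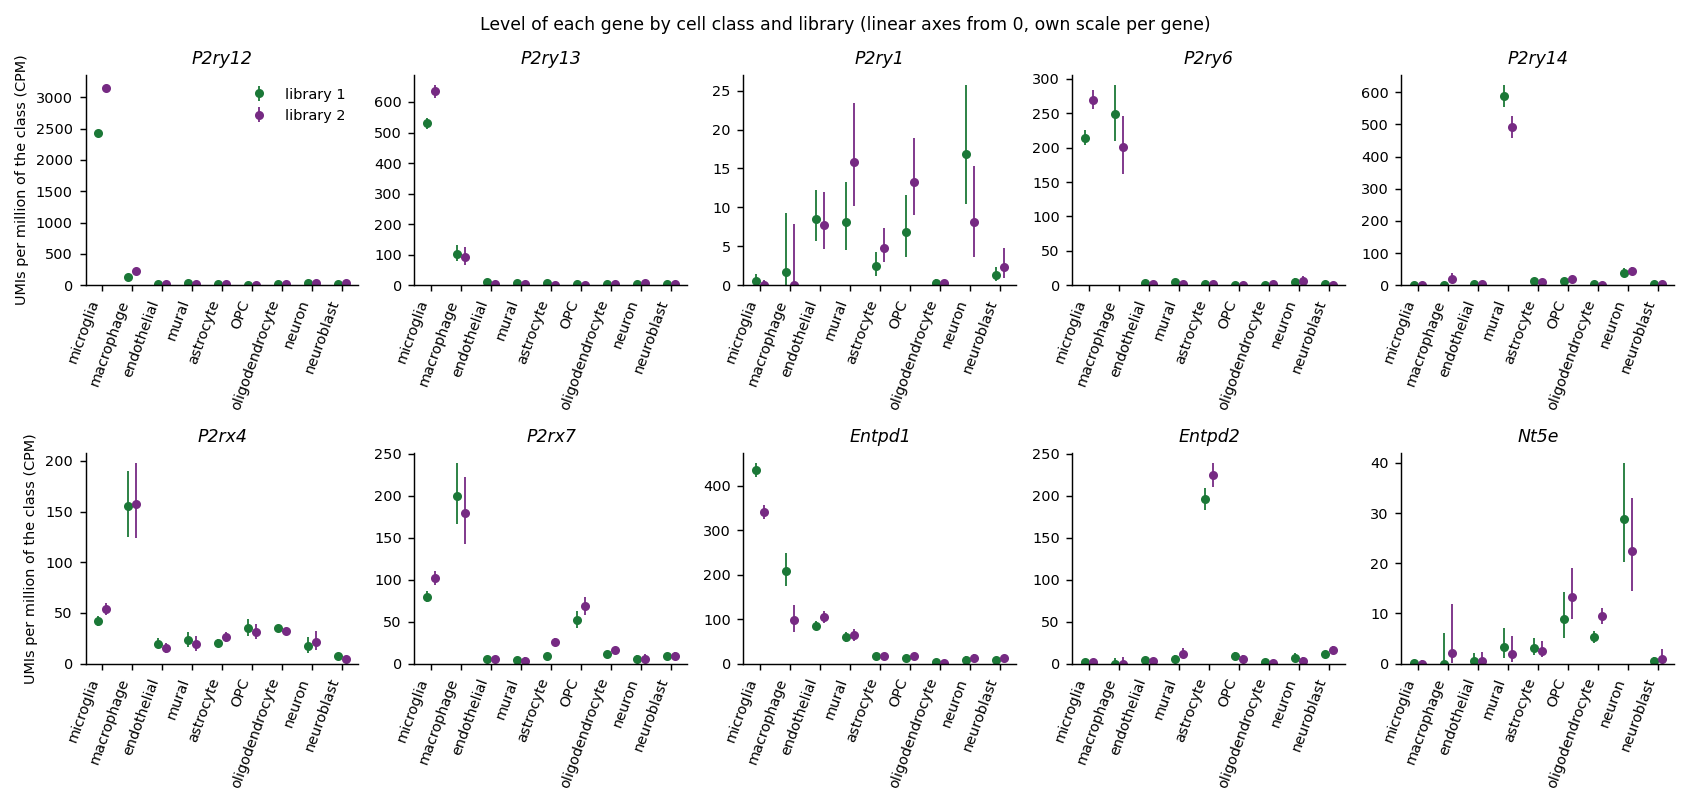
Level of each of the 10 genes in 9 cell classes, in CPM of the class (vertical axes, linear from 0, with their own scale per gene), with 1 point per library and exact Poisson 95% intervals. P2ry12, P2ry13 and Entpd1 stand highest in microglia, P2ry14 in mural cells, Entpd2 in astrocytes, P2rx4 and P2rx7 in macrophages and Nt5e in neurons in both libraries, and the intervals of P2ry1 overlap among its highest classes.

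Microglia held RNA of most of the nucleotide receptors. Of the 10 genes, 6 were called higher in microglia than in the other classes, where 34.1% of all genes were, and 3 were called lower, where 22.2% of all genes were. The genes called higher were P2ry12, P2ry13, P2ry6, P2rx7, P2rx4 and Entpd1, and those called lower were P2ry1, P2ry14 and Nt5e.

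P2ry12, the ADP receptor used as a marker of microglia, stood at 2438 CPM (2401-2474) and 3156 CPM (3109-3203) in microglia of libraries 1 and 2. Macrophages held 132 and 219.7 CPM, and the other 7 classes held 8.42 to 39.8 CPM. Microglia were thus above each other class in both libraries, and macrophages were above the remaining 7. The fitted log2 difference between microglia and the other classes was 7.11 ± 0.16 (edgeR adjusted p = 5.0e-16). Microglia accounted for 96.2% and 96.3% of all P2ry12 UMIs in the kept cells. A P2ry12 UMI was found in 92.3% and 97.2% of microglia, and in 84.1% and 91.4% once each cell was thinned to 1000 UMIs, which left out 98 and 57 shallower microglia. In oligodendrocytes, a class that should lack the gene, the shares were 10.8% and 7.55% before and 1.57% and 2.06% after thinning. Their median depths were 11610.5 and 12140 UMIs per cell, against 6930 and 5498 in microglia.

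The low P2ry12 values outside the myeloid classes were set beside the level of microglial markers there. The 7 non-myeloid classes held 0.425% to 1.64% of the summed level of 10 microglial markers in microglia, with none of the 10 at 0. At those shares P2ry12 would stand at 12.5 to 50.3 CPM, beside the measured 8.42 to 39.8 CPM. P2ry13 would stand at 2.70 to 10.1 CPM and was measured at 1.33 to 9.13 CPM, and P2ry6 at 1.10 to 4.29 CPM against 0 to 6.27 CPM. What the low values of these 3 genes in the non-myeloid classes come from was not tested. Entpd1, at 1.45 to 7.15 CPM by the marker share and 0.800 to 104 CPM measured, and P2rx7, at 0.406 to 1.62 and 3.16 to 68.2 CPM, reached far above it in some classes.

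Med12l, which shares exonic sequence with P2ry12, had means over the libraries of 42.9 CPM in microglia, 27.8 CPM in neurons, 21.3 CPM in OPCs and 16.6 CPM in astrocytes. Those of P2ry12 were 2797, 36.2, 9.97 and 18.5 CPM in the same classes. In the other 5 classes Med12l had 0.847 to 7.89 CPM. Whether reads of Med12l entered the P2ry12 counts was not tested.

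P2ry13, a further ADP receptor, had 529.8 CPM (513-547) and 636 CPM (615-657) in microglia, against 103 and 91.7 CPM in macrophages and 1.33 to 9.13 CPM in the other classes. Microglia, macrophages and all other classes stood in this order in both libraries without overlap. Its fitted difference was 6.85 ± 0.15 (adjusted p = 2.7e-16). P2ry6, the UDP receptor linked to phagocytosis, had 214 CPM (204-225) and 269 CPM (256-283) in microglia and 248 CPM (210.1-292) and 201 CPM (162-245) in macrophages. The libraries of the myeloid classes overlapped for P2ry6, and both classes stood above the other 7, which reached at most 6.27 CPM. The difference of microglia from the other classes was 6.24 ± 0.15 (adjusted p = 5.2e-16).

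P2rx7, a channel that opens at high ATP, had 79.2 and 102 CPM in microglia and 200.03 and 179 CPM in macrophages. P2rx4, a channel of lysosomes and the cell surface, had 42.0 and 53.6 CPM in microglia and 155 and 158 CPM in macrophages. For both channels macrophages were higher than microglia in each library, and microglia were higher than each of the other classes. The difference of microglia from the other classes was 2.96 ± 0.16 for P2rx7 (adjusted p = 3.8e-11) and 1.31 ± 0.13 for P2rx4 (adjusted p = 2.1e-07). Entpd1, which encodes CD39, had 435 CPM (420.1-451) and 341 CPM (326-357) in microglia. They held 80.8% and 76.5% of all Entpd1 UMIs, and the fitted difference was 4.57 ± 0.16 (adjusted p = 8.9e-14).

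Nt5e, whose enzyme acts after CD39 in the chain from ATP to adenosine, had 1 and 0 UMIs among the 7098515 and 5466243 UMIs of microglia, where 3 UMIs would have been 0.423 and 0.549 CPM. Entpd2 stood at 1.41 and 1.46 CPM in microglia, P2ry14 at 1.41 and 1.46 CPM and P2ry1 at 0.563 and 0 CPM. Nt5e (adjusted p = 5.8e-04), P2ry14 (6.2e-06) and P2ry1 (0.00593) were called lower in microglia by edgeR. Entpd2 was not called, but macrophages held 0 Entpd2 UMIs in both libraries and the fit gave an SE of 111. The test could therefore not decide whether Entpd2 was lower in microglia. The Nt5e and P2ry1 calls were lost when cells whose finer cluster had another name were left out, an alternative chosen after seeing the data. It left out 0 microglia, and their levels were unchanged. Macrophages then held 0 Nt5e UMIs and mural cells 0 P2ry1 UMIs in both libraries, so that the test could not decide these differences there.

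Single microglia held several of these RNAs together. After thinning to 2000 UMIs, 836 of 862 microglia in library 1 and 856 of 870 in library 2 had a P2ry12 UMI, and the median number of the 6 genes called higher that had a UMI was 3 per cell in both. Among the cells with P2ry12, 66.1% and 71.5% had P2ry13, 53.9% and 49.9% had Entpd1 and 36.1% and 41.1% had P2ry6. P2rx7 was found in 14.4% and 20.9% of them and P2rx4 in 8.49% and 11.0%. The 26 and 14 cells without a P2ry12 UMI were too few for a comparison.

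At a finer resolution microglia formed a cluster of 1653 cells at a median of 6967 UMIs and one of 488 cells at 1206 UMIs. P2ry12 was at 2498 and 3214 CPM in the first and 1444 and 2076 CPM in the second, which was the lower in both libraries. P2rx7 was at 78.7 and 102 CPM in the first and 86.1 and 97.5 CPM in the second, and the libraries overlapped. These are levels with no test. Depth differed along with the clusters, and the leading genes of the second cluster included Ccl4, Lag3 and Ccl3.

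The macrophage class shared these receptors with microglia in other proportions. Against the other classes 6 of 10 members were called higher (17.7% of all genes), the same 6 genes as in microglia, and 1 was called lower (14.5% of all genes). The fitted difference was 5.86 ± 0.22 for P2ry6 (adjusted p = 3.9e-13), 3.95 ± 0.21 for P2rx7 (1.3e-10) and 2.97 ± 0.17 for P2rx4 (3.2e-10). Entpd2, with 0 UMIs in both libraries, where 3 UMIs would be 5.00 and 6.40 CPM, was called lower (adjusted p = 0.0171). That call was lost at a clustering resolution of 0.32 (adjusted p = 0.0511) and without finer clusters of another name (0.0566).

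Set directly against macrophages, microglia differed for 6 of 10 members, where 19.9% of all genes differed in either direction. P2ry12 (4.24 ± 0.34, adjusted p = 1.4e-07), P2ry13 (2.81 ± 0.27, 1.4e-06) and Entpd1 (1.56 ± 0.29, 0.00101) were higher in microglia. P2rx4 (-1.48 ± 0.20, adjusted p = 5.5e-05), P2rx7 (-0.87 ± 0.24, 0.0157) and P2ry14 (-2.22 ± 0.78, 0.0331) were lower in microglia. P2ry6 did not pass the test (0.34 ± 0.22, adjusted p = 0.324). Macrophages held 43.1% and 31.4% of the summed level of the microglial markers, several of which macrophages also express, and at that share P2ry12 would stand at 1051 and 989.8 CPM, above the measured 132 and 219.7 CPM. The P2ry14 call rested on 1 and 9 macrophage UMIs and was lost under 3 alternatives. In library 2, 6 of these UMIs lay in the 40 cells named monocyte or neutrophil at the finer resolution. The P2rx7 call was lost without the replicate block (adjusted p = 0.0665).

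The macrophage class divided at the finer resolution into 131 cells led by Pf4 and Mrc1 and 40 cells led by genes of other immune cells, Cd74, Ccl5 and S100a8 among them. P2rx7 was at 235 and 259 CPM in the first and 29.1 and 13.1 CPM in the second. P2ry6 was at 284 and 263 CPM against 77.7 and 72.0 CPM, and Entpd1 at 243 and 129.7 CPM against 38.9 and 32.7 CPM. All 3 were higher in the Pf4 and Mrc1 cells in both libraries, as levels with no test.

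**Figure D2:**
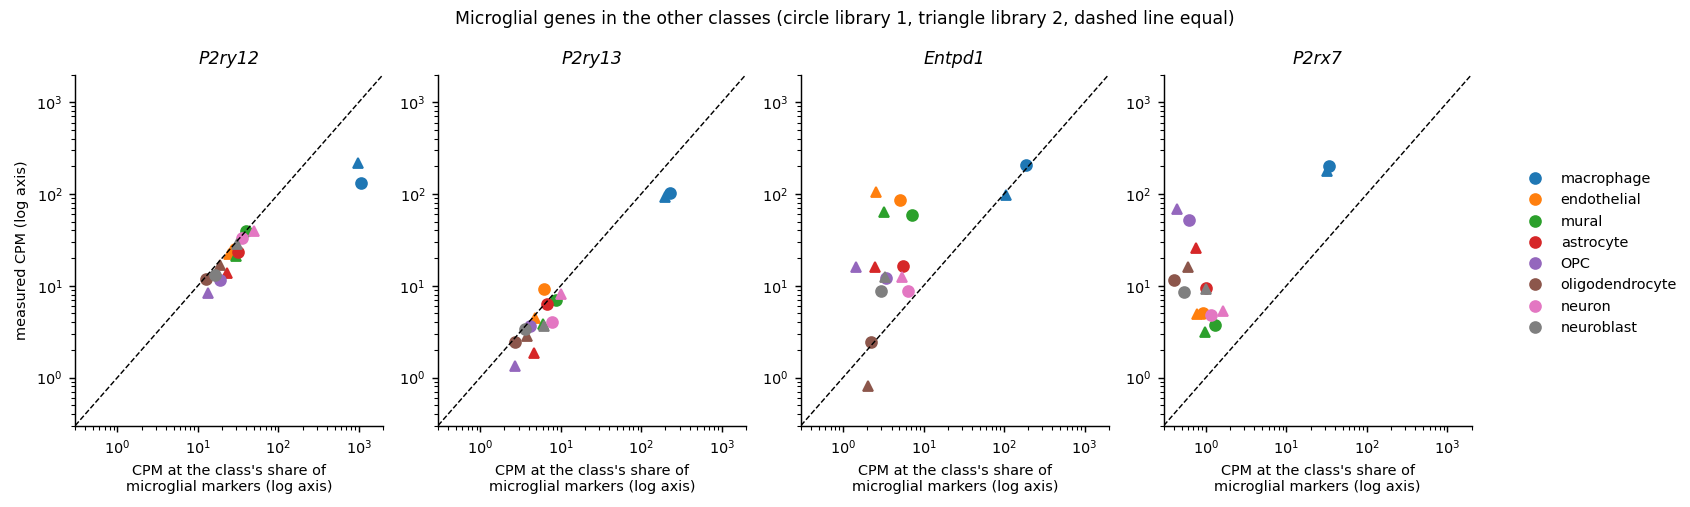
Measured CPM of P2ry12, P2ry13, Entpd1 and P2rx7 in each class other than microglia (vertical, log axis) against the CPM that the class's share of microglial markers would carry (horizontal, log axis), with circles for library 1, triangles for library 2 and a dashed line of equality. P2ry12 and P2ry13 of the 7 non-myeloid classes lie near or below the line, whereas Entpd1 of endothelial and mural cells and P2rx7 of OPCs lie far above it.

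In vessels P2ry14 RNA lay mainly in mural cells, whereas RNA of Entpd1, the CD39 gene, was found in both endothelial and mural cells. Mural cells had 3 of 10 members called higher (22.8% of all genes) and 2 called lower (17.5%). Endothelial cells had 2 called higher (26.6%) and 5 called lower (19.3%). P2ry14, the receptor for UDP-sugars such as UDP-glucose, stood at 588 CPM (553-624) and 490.4 CPM (456-526) in mural cells. The next class, neurons, had 39.3 and 43.0 CPM, and endothelial cells had 3.24 and 2.43 CPM. Mural cells were above each other class in both libraries and held 82.7% and 80.0% of all P2ry14 UMIs. The fitted difference was 6.17 ± 0.15 (adjusted p = 2.5e-15). A P2ry14 UMI was found in 62.7% and 64.6% of mural cells, or 47.7% and 38.9% after thinning to 1000 UMIs. In microglia, which are deeper, 0.806% and 0.586% of cells had one, or 0.196% and 0.103% after thinning.

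Within the mural class P2ry14 was highest in pericytes. The finer cluster of 153 cells that raised 6 of 6 pericyte markers had 1855 and 1667 CPM. A shallow cluster of 165 cells, at a median of 1134 UMIs, had 734 and 1011 CPM. The cluster of 115 cells that raised 6 of 6 smooth muscle markers, led by Acta2 and Tagln, had 104 and 73.8 CPM. A cluster of 66 deep cells with markers of both endothelium and mural cells had 431 and 357 CPM, and 56 fibroblast-like cells led by Dcn had 5.59 and 7.56 CPM. These levels have no test, and P2ry14 was kept out of the clustering.

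Entpd1 was arranged differently in the same vessels. Endothelial cells had 85.2 CPM (75.6-95.6) and 104 CPM (91.8-118) and mural cells 59.1 CPM (48.6-71.3) and 63.3 CPM (51.5-77.0). Both classes stood above astrocytes, at 16.5 and 16.1 CPM, in each library. Among the finer mural clusters the smooth muscle cluster had 112 and 117 CPM, the mixed cluster 73.9 and 63.5 CPM, the shallow cluster 33.0 and 12.3 CPM and the pericyte cluster 2.77 and 0 CPM. The pericyte values came from 1 and 0 UMIs and those of the shallow cluster from 5 and 1. Against the other classes Entpd1 was higher in endothelial cells (1.92 ± 0.20, adjusted p = 3.4e-07) and in mural cells (1.07 ± 0.24, 0.00109). Mural cells held 21.7% and 22.5% of the summed endothelial markers, at which Entpd1 would stand at 18.5 and 23.4 CPM, below the measured values in both libraries. The microglial marker share of endothelial cells, 1.18% and 0.762%, would carry 5.13 and 2.60 CPM.

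Set against mural cells, endothelial cells differed for 1 of 10 members, where 26.8% of all genes differed. That gene was P2ry14 (-7.19 ± 0.34, adjusted p = 2.3e-10), lower in endothelial cells, and Entpd1 did not pass (0.76 ± 0.29, 0.0669). P2ry12 (-0.95 ± 0.28, adjusted p = 0.0125), P2ry14 (-1.92 ± 0.39, 4.5e-04), P2rx4 (-0.66 ± 0.19, 0.00775), P2rx7 (-1.95 ± 0.33, 6.9e-05) and Nt5e (-1.71 ± 0.81, 0.0466) were called lower in endothelial cells than the mean log2 level of the other classes. For P2ry12 endothelial cells stood in 5th place of 9, above neuroblasts, astrocytes, oligodendrocytes and OPCs by mean CPM. The Nt5e call was lost under 5 alternatives, and that of P2ry12 under 3, with a change of sign where doublets were kept. In mural cells P2rx7 (-2.60 ± 0.41, adjusted p = 3.6e-05) and P2ry13 (-1.11 ± 0.42, 0.0482) were lower, and the latter call was lost under 6 alternatives.

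P2ry1, an ADP receptor known from platelets, was scarce, with 108 and 115 UMIs in all cells of the libraries. Neurons had 16.9 and 8.06 CPM, mural cells 8.07 and 15.8 CPM, OPCs 6.81 and 13.3 CPM and endothelial cells 8.55 and 7.70 CPM. The libraries of neighbours among these 4 classes overlapped, and no order among them could be read. Astrocytes had 2.42 and 4.83 CPM. P2ry1 was called higher in mural cells (1.91 ± 0.46, adjusted p = 6.8e-04) and in endothelial cells (1.501 ± 0.43, 0.00198) than in the other classes. In the mural class 11 and 21 of its 15 and 25 UMIs lay in the 56 fibroblast-like cells, at 61.4 and 159 CPM. Without the clusters of another name, mural cells held 0 P2ry1 UMIs and the fitted difference was -2.36 (adjusted p = 0.112). With at least 500 genes per cell it was -0.02 (adjusted p = 0.920).

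**Figure D3:**
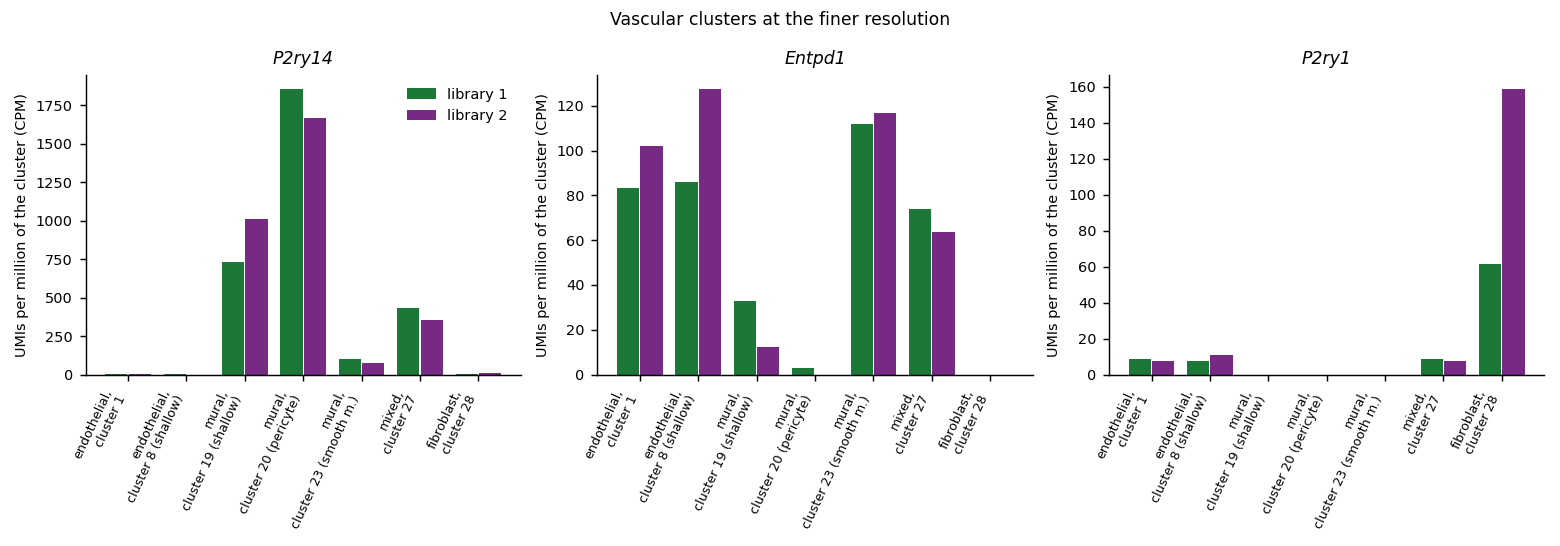
Levels of P2ry14, Entpd1 and P2ry1 in 7 finer clusters of vascular cells, in CPM of the cluster (vertical axes from 0), with 1 bar per library and no error bars. P2ry14 is highest in the pericyte cluster (1855 and 1667 CPM), Entpd1 stands at 112 and 117 CPM in the smooth muscle cluster and near 0 in the pericyte cluster, and P2ry1 is highest in the fibroblast-like cells (61.4 and 159 CPM).

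Astrocytes carried 1 member above all other classes, Entpd2, which encodes an enzyme that turns ATP mainly into ADP. Of the 10 members 1 was called higher in astrocytes (26.4% of all genes) and 4 were called lower (26.7%). Entpd2 had 196 CPM (183-209) and 225 CPM (211-239) in astrocytes and at most 16.2 CPM in each other class. Astrocytes were separate from the rest in both libraries and held 84.1% and 89.6% of its UMIs. The fitted difference was 5.79 ± 0.17 (adjusted p = 8.7e-14). An Entpd2 UMI was found in 29.0% and 45.4% of astrocytes, at medians of 1615 and 2361 UMIs per cell, and in 15.4% and 17.8% after thinning. In microglia the shares were 0.895% and 0.781%, or 0.393% and 0.207% after thinning. The lower calls were P2ry12, P2ry13, P2ry6 and Entpd1.

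Npdc1, whose exons overlap those of Entpd2, had a mean of 109 CPM in astrocytes, 133 CPM in oligodendrocytes and 238 CPM in OPCs, an order unlike that of Entpd2. Among the finer astrocyte clusters Entpd2 was at 312 and 348 CPM in 104 cells led by Agt and Slc6a11 and at 238 and 223 CPM in 597 cells led by Crym. A pair of shallower clusters had 176 and 247 CPM and 141 and 145 CPM. The 415 cells named neuron at this resolution had 37.5 and 28.01 CPM. The cells led by Agt were the highest in both libraries, as levels with no test.

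Entpd2 was also the member called higher in neuroblasts, 1 of 10 (31.9% of all genes), with 8 of 10 called lower (26%). Neuroblasts had 11.7 and 16.2 CPM of Entpd2, and the fitted difference was 1.31 ± 0.35 (adjusted p = 2.4e-04). Of its 83 and 49 UMIs in the class, 42 and 40 came from 109 cells with ependymal markers, led by Ccdc153 and Tmem212, at 102 and 91.1 CPM. A finer cluster of 471 neuroblasts had 0.432 and 2.89 CPM. The call was lost and its sign turned at a clustering resolution of 0.32 (-0.25, adjusted p = 0.849) and without clusters of another name (-0.30, 0.872). Astrocyte markers stood at 8.29% and 10.3% of their astrocyte level in the class, at which Entpd2 would be 16.2 and 23.2 CPM. The lower members were P2rx4 (-2.43 ± 0.21, adjusted p = 2.3e-08), P2rx7 (-1.26 ± 0.26, 4.5e-04), P2ry12 (-1.44 ± 0.28, 2.4e-04), P2ry13 (-1.85 ± 0.34, 1.3e-04), P2ry6 (-2.09 ± 0.45, 5.1e-04), P2ry14 (-1.81 ± 0.32, 8.8e-05), Entpd1 (-1.80 ± 0.29, 3.6e-05) and Nt5e (-1.65 ± 0.68, 0.0185). At a resolution of 0.32 the calls of P2rx7 (-0.78, edgeR adjusted p = 0.0556) and Nt5e (-1.38, 0.13) were lost. That of Nt5e was also lost without clusters of another name.

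In the oligodendrocyte lineage P2rx7 was called higher in OPCs, P2rx4 in oligodendrocytes and Nt5e in both, each against the other classes. Their levels were higher still in macrophages for both channel genes and in neurons for Nt5e. OPCs had 3 of 10 members called higher (25.8% of all genes) and 4 called lower (21.4%). P2rx7 was at 51.9 CPM (42.2-63.1) and 68.2 CPM (57.9-79.9) in OPCs, below the myeloid classes and above each of the others in both libraries. Its fitted difference was 1.43 ± 0.20 (adjusted p = 1.2e-05). The microglial marker share of OPCs, 0.781% and 0.425%, would carry 0.618 and 0.432 CPM. A P2rx7 UMI was found in 27.3% and 33.2% of OPCs, or 6.60% and 7.76% after thinning, against 1.86% and 1.83% of endothelial cells, or 0.327% and 0.206% after thinning. Nt5e (1.77 ± 0.39, adjusted p = 1.1e-04) and P2ry1 (1.33 ± 0.45, 0.00525) were the others called higher. P2ry6 (-3.32 ± 0.65, adjusted p = 4.4e-05), P2ry12 (-2.81 ± 0.36, 4.9e-06), P2ry13 (-2.54 ± 0.46, 1.1e-04) and Entpd1 (-1.60 ± 0.31, 4.9e-04) were lower. The P2ry12 call was lost at a resolution of 0.32 (-0.91, edgeR adjusted p = 0.0869) and under 20% mitochondrial UMIs (-0.83, 0.158).

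Oligodendrocytes had 2 of 10 members called higher (35.3% of all genes) and 6 called lower (23.1%). P2rx4 was at 35.0 CPM (32.0-38.2) and 31.9 CPM (29.1-34.9) in oligodendrocytes, which overlapped the 34.6 and 31.0 CPM of OPCs. Its fitted difference from the other classes was 0.77 ± 0.13 (adjusted p = 6.2e-05). Oligodendrocytes held 41.0% and 42.2% of all P2rx4 UMIs, being numerous and deep. P2rx4 was at 53.2 and 44.5 CPM in 385 cells led by Klk6 and at 26.1 and 26.2 CPM in 345 cells led by Opalin. It was at 30.6 and 26.5 CPM in 710 cells led by Il33 and at 42.5 and 57.3 CPM in 688 shallow cells, whose medians were 2530.5 UMIs and 23.1% mitochondrial UMIs. The cells led by Klk6 and the shallow cells were above the other 2 clusters in each library, and which of them was the higher differed between the libraries. Entpd1 stood at 2.41 and 0.800 CPM, its lowest level of all classes (-3.98 ± 0.33, adjusted p = 6.0e-09). P2ry1 (-2.21 ± 0.74, adjusted p = 0.00235), P2ry6 (-2.18 ± 0.42, 1.3e-04), P2ry14 (-1.89 ± 0.28, 9.1e-06), P2ry13 (-1.67 ± 0.29, 5.9e-05) and P2ry12 (-1.38 ± 0.26, 1.9e-04) were also lower in oligodendrocytes.

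Between OPCs and oligodendrocytes 7 of 10 members differed, where 51.8% of all genes did. P2ry1 (3.15 ± 0.64, adjusted p = 3.7e-05), Entpd1 (2.12 ± 0.46, 3.8e-04), P2ry14 (1.92 ± 0.36, 1.1e-04), Entpd2 (1.46 ± 0.43, 0.0031) and P2rx7 (1.29 ± 0.24, 2.3e-04) were higher in OPCs. P2rx4 (-0.82 ± 0.20, adjusted p = 0.00223) and P2ry12 (-1.27 ± 0.42, 0.0134) were lower in OPCs. With library sizes alone in place of TMM factors P2rx4 stood at -0.03 and was not called. In a finer cluster of 238 cells led by Bmp4 and Gpr17, which lay mostly in the oligodendrocyte class, P2rx7 was at 8.15 and 17.6 CPM against 44.7 and 64.9 CPM in the larger OPC cluster. The cluster of 238 cells also held 11 and 175 P2ry12 UMIs, beside 170 and 255 in the whole oligodendrocyte class. These were 6.40 and 134 CPM, so that library 2 was far above library 1. The P2ry12 difference was 1.05 at a resolution of 0.32 and 1.17 without cells of 20% or more mitochondrial UMIs, with no call. Its call was also lost with DESeq2 (adjusted p = 0.0514). With edgeR it was lost with library sizes alone (adjusted p = 0.319), doublets kept (0.0869) and without clusters of another name (0.31).

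Astrocytes and OPCs differed for 4 of 10 members, where 41.9% of all genes did. Entpd2 was higher in astrocytes (5.08 ± 0.28, adjusted p = 1.9e-09), and P2rx7 (-1.45 ± 0.26, 2.7e-04) and Nt5e (-1.47 ± 0.46, 0.00889) were lower. P2ry12 was called higher in astrocytes (1.196 ± 0.44, adjusted p = 0.0301), at 23.3 and 13.8 CPM against 11.5 and 8.42 CPM, and this call was lost under 7 alternatives.

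Neurons had 3 of 10 members called higher (26.4% of all genes) and 4 called lower (29.3%). Nt5e, the gene of the adenosine-producing enzyme CD73, stood at 28.9 CPM (20.2-40.01) and 22.4 CPM (14.5-33.0) in neurons, from 36 and 25 UMIs. OPCs followed with 8.91 and 13.3 CPM and oligodendrocytes with 5.23 and 9.40 CPM, which overlapped each other but not neurons. The fitted difference was 3.16 ± 0.36 in neurons (adjusted p = 1.6e-07) and 1.97 ± 0.30 in oligodendrocytes (1.7e-06). Oligodendrocytes, the deeper and more numerous class, held 49.0% and 65.6% of all Nt5e UMIs and neurons 23.2% and 11.6%. An Nt5e UMI was found in 11.98% and 9.30% of neurons, at medians of 4603.5 and 4106 UMIs per cell, against 0.0895% and 0% of the deeper microglia, where 0 of 1024 cells in library 2 allow a share with a UMI of up to 0.293%, that of 3 cells. This limits cells with a UMI and not cells that express the gene.

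P2ry14, at 39.3 and 43.0 CPM, was also higher in neurons (1.73 ± 0.27, adjusted p = 1.5e-05). The mural marker share of neurons, 0.802% and 0.134%, would carry 4.71 and 0.657 CPM, below the measured level in both libraries. P2ry1 was higher in neurons too (1.77 ± 0.50, adjusted p = 0.0015), where its antisense neighbour Gm37035 had 5.23 CPM from 12 UMIs. P2rx4 (-0.95 ± 0.23, adjusted p = 0.00184), P2rx7 (-2.32 ± 0.42, 1.0e-04), Entpd1 (-1.98 ± 0.39, 3.4e-04) and P2ry13 (-1.25 ± 0.47, 0.0303) were lower, the last of them with its call lost under 4 alternatives.

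**Figure D4:**
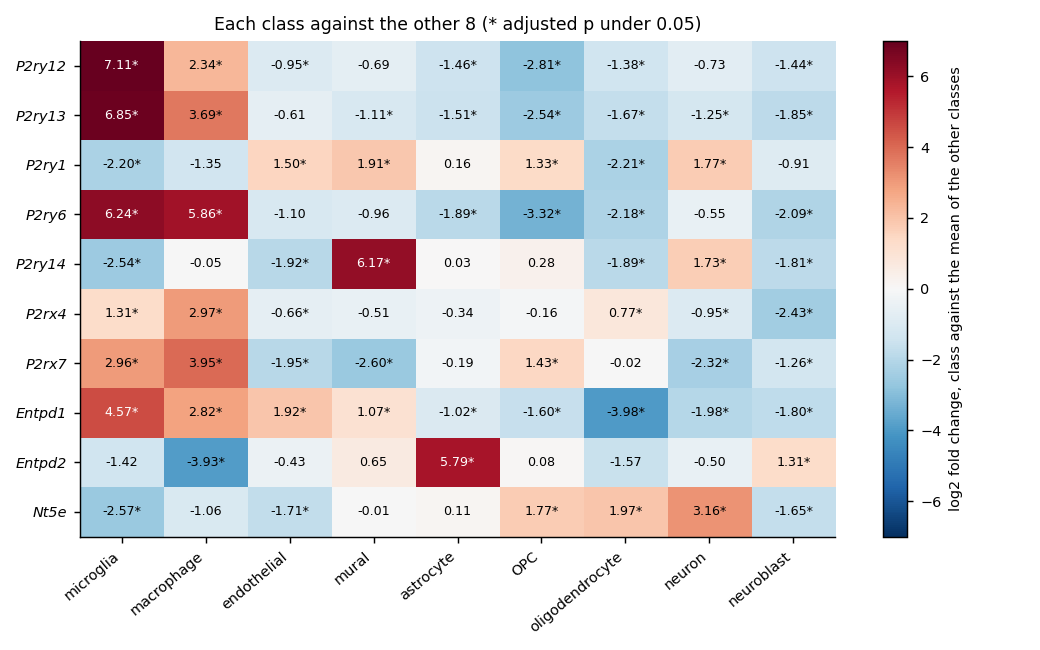
Fitted log2 fold change of each of the 10 genes (rows) in each class against the mean log2 level of the other 8 (columns), with an asterisk for an adjusted p under 0.05 and a colour scale centred on 0. The highest values are 7.11 for P2ry12 and 6.85 for P2ry13 in microglia, and 6.17 for P2ry14 in mural cells and 5.79 for Entpd2 in astrocytes are the only values above 5 outside the myeloid classes.

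Over the 18 class sums of both libraries, each member was compared with 8084 genes by Pearson's r of log2(CPM + 10), as a description over points that share libraries. The nearest gene was Selplg for P2ry12 (r = 0.997), Csf3r for P2ry13 (0.997), Cd86 for P2ry6 (0.998) and Cmtm6 for Entpd1 (0.974). It was Slc9a9 for P2rx7 (0.963), Uap1l1 for P2rx4 (0.932) and Cog7 for P2ry14 (0.968). It was Scara3 for Entpd2 (0.989), Dlg2 for Nt5e (0.962) and Pdzd2 for P2ry1 (0.941).

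Of 38 other genes of purinergic signalling 27 had enough counts to be tested between classes, among them adenosine receptors, further receptors, enzymes and transporters. In microglia 10 of the 27 were called higher, where 34.1% of all genes were, and 10 lower, where 22.2% were. Gpr34, a lysophosphatidylserine receptor related to P2Y12, had 2026 ± 432 CPM in microglia (mean ± SD, n = 2 libraries) and was higher there (7.08 ± 0.14, adjusted p = 1.5e-16). Adora3, an adenosine receptor, had 85.5 ± 15.1 CPM (6.34 ± 0.20, adjusted p = 2.0e-14), P2ry10b 33.3 ± 5.67 CPM (4.72 ± 0.24, 3.1e-12) and the nucleoside transporter gene Slc29a3 233 ± 50.1 CPM (3.84 ± 0.13, 4.1e-14). In macrophages 9 were called higher (17.7% of all genes) and 1 lower (14.5%). Gpr34 (3.38 ± 0.21, adjusted p = 9.0e-10) and Slc29a1, a nucleoside transporter, (3.12 ± 0.22, 2.5e-09) were among the higher ones. Gpr171, which lies 12034 bp from P2ry14, was higher in macrophages (4.08 ± 0.93, adjusted p = 1.1e-04) from 12 UMIs. So were Dpp4 (3.13 ± 0.66, 4.3e-05) and Slc17a9, the vesicular nucleotide transporter, (3.12 ± 0.76, 0.00263). Whether their counts came from the cells of that class named monocyte or neutrophil, which raised T cell markers too, was not tested.

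In endothelial cells 4 genes of the list were called higher (26.6% of all genes) and 9 lower (19.3%). Alpl, a phosphatase that can also make adenosine, had 95.8 ± 27.2 CPM there (4.60 ± 0.20, adjusted p = 8.7e-13), and Dpp4 had 45.5 ± 29.0 CPM (4.77 ± 0.30, 4.1e-11). Mural cells had 8 higher (22.8% of all genes) and 8 lower (17.5%). The channel gene P2rx1 was at 43.1 ± 0.835 CPM there (5.25 ± 0.36, adjusted p = 2.8e-10) and the adenosine receptor gene Adora2a at 58.2 ± 9.76 CPM (3.07 ± 0.17, 4.5e-11). Adora1, a further adenosine receptor gene, was lower in mural cells (-3.08 ± 0.43, adjusted p = 5.5e-06). Neurons had 8 higher (26.4% of all genes) and 6 lower (29.3%). Among them were Adora2a at 157 ± 29.8 CPM (4.39 ± 0.14, adjusted p = 1.3e-13), Entpd3 at 8.00 ± 1.18 CPM (3.46 ± 0.85, 4.5e-05) and Alpl, which was lower (-3.12 ± 0.94, 0.0015). Gpr171 was higher in neurons (1.18 ± 1.06, adjusted p = 0.016) and in OPCs than in oligodendrocytes (1.33 ± 1.33, 0.0386), and P2ry2, a list gene within 200 kb of P2ry6, had too few counts to be tested.

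Astrocytes had 10 genes of the list higher (26.4% of all genes) and 6 lower (26.7%), with the adenosine receptor gene Adora2b at 63.4 ± 3.27 CPM (3.98 ± 0.21, adjusted p = 2.2e-11). OPCs had 10 higher (25.8% of all genes) and 5 lower (21.4%). Gpr17, a receptor of the oligodendrocyte lineage, stood at 689.9 ± 95.6 CPM in OPCs (6.28 ± 0.28, adjusted p = 2.4e-11) and at 149 ± 49.4 CPM in oligodendrocytes (4.56 ± 0.29, 8.7e-10). The oligodendrocyte class held most of the 238 cells led by Bmp4 and Gpr17 that were named OPC at the finer resolution. Their part in its Gpr17 level was not tested. Adora1 at 138 ± 7.86 CPM (3.46 ± 0.15, adjusted p = 5.9e-12) and Adora2b at 53.4 ± 22.96 CPM (3.30 ± 0.24, 2.4e-09) were also higher in OPCs. Oligodendrocytes had 9 higher (35.3% of all genes) and 8 lower (23.1%), with Enpp2, the enzyme autotaxin, at 1843 ± 178 CPM (5.02 ± 0.19, adjusted p = 4.5e-13) and Slc29a1 lower (-4.18 ± 0.29, 3.7e-10). Neuroblasts had 4 higher (31.9% of all genes) and 12 lower (26%). The median fitted difference of the 10 members was 2.13 in microglia, 2.58 in macrophages, -1.62 in oligodendrocytes and -1.72 in neuroblasts. Over all genes tested it was -0.03, -0.29, -0.02 and -0.07 in the same order.

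**Figure D5:**
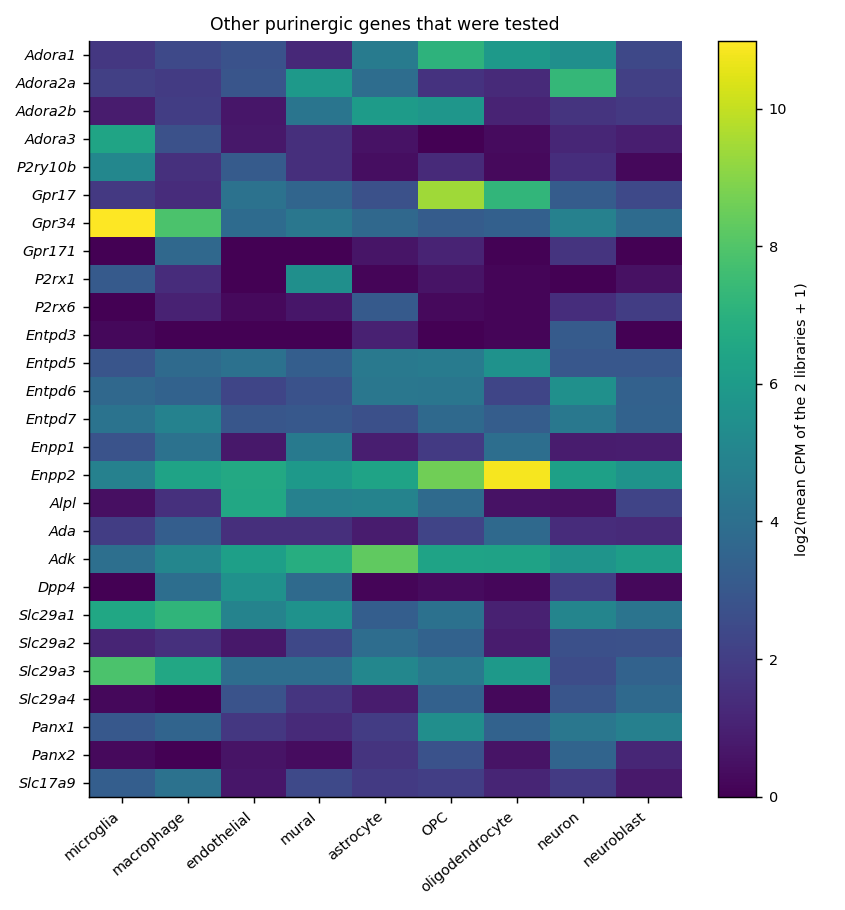
Mean level over the 2 libraries, as log2(CPM + 1) on a colour scale from 0, of the 27 other purinergic genes that were tested (rows) in 9 classes (columns). The brightest fields are Gpr34 in microglia (2026 CPM), Enpp2 in oligodendrocytes (1843 CPM) and Gpr17 in OPCs (689.9 CPM).

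In the pairwise comparisons the same list had 4 genes higher in microglia than in macrophages and 3 lower, 5 and 5 in endothelial against mural cells, 5 and 5 in astrocytes against OPCs, and 11 and 7 in OPCs against oligodendrocytes. In the same order, 19.9%, 26.8%, 41.9% and 51.8% of all genes were called in either direction. Adora3 (4.03 ± 0.45, adjusted p = 6.1e-06), P2ry10b (4.07 ± 0.68, 1.9e-04) and Gpr34 (3.29 ± 0.28, 2.5e-07) were higher in microglia than in macrophages, and Gpr171 (-4.67 ± 1.44, 9.6e-04) and Dpp4 (-4.98 ± 1.18, 5.0e-05) were lower. P2rx1 (-6.34 ± 0.89, adjusted p = 6.3e-07), the phosphodiesterase gene Enpp1 (-4.11 ± 0.56, 5.9e-06) and Adora2b (-3.88 ± 0.60, 2.0e-05) were lower in endothelial than in mural cells. Gpr17 (-7.04 ± 0.55, adjusted p = 4.5e-08) and the pannexin channel gene Panx1 (-3.36 ± 0.32, 1.4e-07) were lower in astrocytes than in OPCs, and P2rx6 was higher (3.52 ± 0.81, 9.0e-05). Adora2b (4.31 ± 0.33, adjusted p = 4.5e-09), Slc29a4 (3.41 ± 0.67, 1.6e-05) and Alpl (3.21 ± 0.46, 1.4e-06) were higher in OPCs than in oligodendrocytes, and Enpp2 was lower (-3.06 ± 0.35, 1.4e-06).

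The study was concerned with astrocytes that express Crym, the gene of the thyroid hormone-binding protein μ-crystallin, and the members were therefore also compared between Crym+ and Crym- astrocytes. The groups held 549 and 446 Crym+ and 980 and 623 Crym- cells in libraries 1 and 2. Of the members, Entpd2 alone reached the minimum of detection in 10% of the cells of a group. In library 1 its level was 221 CPM (202-241) in the Crym+ group against 169.9 CPM (153-188) in the Crym- group. In library 2 the levels were 223 CPM (204-243) and 227 CPM (207-249). The intervals were apart in library 1 and overlapped in library 2. The groups still held most of the 415 shallow cells named neuron at the finer resolution, of which 319 were in library 1 and 96 in library 2. Entpd2 stood at 37.5 and 28.01 CPM in those cells, and their part in the group levels was not tested. Entpd2 did not pass the test (0.14 ± 0.11, edgeR adjusted p = 0.474), where 8.5% of 5928 genes did. The count of members called was 0 by edgeR and by DESeq2, and 0 had an unadjusted edgeR p under 0.05. The share of cells with an Entpd2 UMI, 39.2% and 53.6% in Crym+ against 23.4% and 39.5% in Crym- cells, moved with depth, whose medians were 2404 and 4939.5 UMIs against 1340 and 1782.

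Microglia with RNA of the chemokines Ccl3 and Ccl4, which are known to rise when brain tissue is dissociated, were compared with microglia without it. According to the paper, the transcription inhibitor actinomycin D was present during dissociation to prevent such stress responses. The library median of both genes together was 0, so that the groups were the 46 and 50 cells with at least 1 UMI against 1071 and 974 cells. Of 6 members tested 1 was called, where 1.23% of 7081 genes were. P2ry12 was at 2301 CPM (2144-2467) and 2376 CPM (2207-2554) in the cells with Ccl3 or Ccl4, against 2445 CPM (2407-2482) and 3203 CPM (3154-3252) in the others. It was lower in both libraries, although the intervals overlapped in library 1. The fitted difference was -0.29 ± 0.06 (edgeR adjusted p = 1.2e-04), and P2ry13, P2ry6, P2rx4, P2rx7 and Entpd1 did not pass. The P2ry12 call was lost with DESeq2 and under 3 further settings.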

How the data were processed

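Single-cell suspensions of striatum were sequenced in 2 libraries with 10x 3′ chemistry. The authors deposited raw UMI counts per gene and cell, made with Cell Ranger against mm10. The submitters' processing notes name version 4.0, and the paper another. The paper describes more cells than were analysed here, and how many mice gave the 2 libraries is not given in the sources used here.

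Cells with at least 300 genes were kept, and Scrublet doublets (expected rate 6%, scanpy 1.11.5) were removed. Libraries were integrated in Seurat 5.3.0 (2000 variable genes, CCA, 30 components) and clustered at a resolution of 0.08, with 1.2 for finer clusters. Neither step saw the members, 38 related genes, Crym, Ccl3, Ccl4 or genes of the cell cycle. Names came from markers raised at least 2 times, of which at least 3 were needed. Counts were summed per library and class and tested in edgeR 4.0.16 (R 4.3.3) with TMM factors and the library as a block, since classes of a library share a suspension. Fold changes use edgeR's prior count, which shrinks those of genes with few UMIs. Their SE was derived from the test's fold change and F statistic, without the prior count. Crym+ astrocytes had a natural log of 1 plus Crym UMIs per 10000 above 0.25. Members are named in a comparison where called, and the plot of fitted differences holds all 10 for each class. Genes of the list are named where called at an absolute log2 change of at least 3 or, where called, within 200 kb of a member. Members, lists and tests were chosen with earlier results of these data known. Alternatives were DESeq2 1.42.0, library sizes alone, no block, all genes, other clusterings and filters, thinning and single libraries. Statistics were tested on simulated data, where 74% of 2-fold and 93% of 4-fold changes were called for microglia against the other classes. Between microglia and macrophages 21% and 74% were called. Between the Crym groups 89% and 100% were, and between the groups with and without Ccl3 or Ccl4 36% and 86%. A missing call between microglia and macrophages or in the Ccl3 and Ccl4 split can therefore hide a 2-fold change.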

Additional observations from a re-analysis of the deposited data

How the results depend on the processing

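The 83 calls of members over all comparisons gave 827 values under alternatives with a test, of which 47 lost the call with the same sign and 9 changed sign, and 63 calls kept their direction and their side of the threshold throughout. Leaving out finer clusters of another name and keeping cells of at least 1000 UMIs were chosen after seeing the data. The former left mural cells with 0 P2ry1 UMIs and macrophages with 0 Nt5e UMIs. Lower calls of these genes in other classes could not be decided under it. P2ry12 changed sign in endothelial cells with doublets kept (0.10), between astrocytes and OPCs at a resolution of 0.32 (-0.48) and under 20% mitochondrial UMIs (-0.97), and between OPCs and oligodendrocytes under the same settings (1.05 and 1.17). P2ry1 in mural cells changed sign with at least 500 genes (-0.02) and without clusters of another name (-2.36), as did Entpd2 in neuroblasts at a resolution of 0.32 (-0.25) and without clusters of another name (-0.30). The cause was not tested.

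The count of members called higher in neuroblasts, 1, was 0 under both of the latter settings, where 7953 of 15395 and 7651 of 14804 of all genes were called in either direction, against 8871 of 15303. Between endothelial and mural cells the count, 1, was 2 with all genes tested, 4 with doublets kept and 2 without clusters of another name. All genes called there were 4247 of 23616, 4281 of 15363 and 4531 of 14804, against 4099 of 15303. Between astrocytes and OPCs it was 2 in place of 4 under 20% mitochondrial UMIs, where 7413 of 15518 genes were called, against 6408 of 15303. Between Crym+ and Crym- astrocytes it was 1 in place of 0 with all genes tested, with 998 of 19033 genes called, against 504 of 5928. The single call between microglia with and without Ccl3 or Ccl4 RNA became 0 with DESeq2, without the replicate block, after thinning to 2000 UMIs and under 20% mitochondrial UMIs, where 12 of 7081, 3 of 7081, 4 of 3782 and 29 of 7076 genes were called, against 87 of 7081. Every class sum of a library comes from 1 suspension, so the library was a block. Without the replicate block microglia and macrophages differed for 5 members in place of 6, P2rx7 being lost (-0.85, edgeR adjusted p = 0.0665), and P2ry13 in mural cells was lost too (0.0609). Leaving out either library left 1 per class and values with no test. P2ry1 and Nt5e, with the fewest UMIs, are those whose levels depth limits most.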
